A study of Homo sapiens with 4 samples.

Results

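Among the CUT&Tag peaks called with an antibody against PPARα in NB4 cells, a minority lay on sequence where no PML/RARA peak had been called. These peaks are described here. They were selected on position, that is, on the coordinates of the called peaks in both lists: a PPARα peak on chromosomes 1 to 22 belonged to the group when it shared 0 bases with every peak of the PML/RARA list. The rule found 954 of 9573 PPARα peaks (9.97%, 95% exact binomial interval 9.37 to 10.6). They are called unshared peaks below, and the 8619 PPARα peaks with at least 1 base in common with PML/RARA are called shared peaks.

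NB4 is a human acute promyelocytic leukemia cell line in which RARA is fused to PML. CUT&Tag directs a transposase to chromatin through an antibody and sequences the fragments it releases. The series holds 4 libraries of these cells: 1 with the PPARα antibody, 1 with an antibody labelled PML/RARA, and an IgG control library for each of them, and the labels name no drug, dose or time. The 2 antibody libraries each have 1 deposited peak list, of 9829 and 46021 peaks, and the IgG libraries were not analysed here. Read depth is unknown, so an unshared peak is one where no PML/RARA peak was called, which does not show that PML/RARA was absent. The sources used here do not give the epitope of that antibody, so the unfused PML and RARA proteins cannot be told apart from the fusion.

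PPARα is a nuclear receptor that senses fatty acids and switches on genes of fatty acid oxidation. It binds DNA as a heterodimer with RXR, classically at direct repeats of AGGTCA with a single base between the copies. PML/RARA is the oncogenic fusion of acute promyelocytic leukemia. It also associates with RXR and recognises AGGTCA elements in varied spacing, which makes the sites that the receptors do not share of interest.

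With 1 library per antibody there is no replicate, and no test over samples exists. Values are therefore descriptions of these lists. Intervals are 95% exact binomial ones for shares and order-statistic ones for medians. They cover counting error over peaks only, and neighbouring peaks are not independent.

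Some promoters carried an unshared PPARα peak, and 6 of them are printed below as examples. GPATCH2 had the strongest gene-end peak, CWC22 and DHX36 had peaks 742 and 1102 kb from PML/RARA, ARHGAP15 and MGAT5 hold the only AGGTCA cores found in such windows, and PDE5A has the highest GC content. Each is a RefSeq promoter window on GRCh38.p14, from 250 bases before to 50 after an annotated start, written 5′ to 3′ on the strand of the gene. Capitals mark AGGTCA, the ETS-factor core CGGAAG and the CCAAT box, in either orientation. GPATCH2, which encodes a G-patch domain protein, lies back to back with SPATA17, and its window is chr1:217631041-217631340 on the minus strand. CWC22, a spliceosome-associated factor gene, is at chr2:180007057-180007356, minus strand. DHX36, the gene of a helicase that unwinds G-quadruplexes, is at chr3:154324438-154324737, minus strand. ARHGAP15, a Rac GTPase-activating protein gene, is at chr2:143129169-143129468, plus strand. MGAT5, which encodes a glycosyltransferase that branches N-glycans, is at chr2:134119685-134119984, plus strand. PDE5A, the gene of a cGMP phosphodiesterase, is at chr4:119628755-119629054, minus strand.
GPATCH2: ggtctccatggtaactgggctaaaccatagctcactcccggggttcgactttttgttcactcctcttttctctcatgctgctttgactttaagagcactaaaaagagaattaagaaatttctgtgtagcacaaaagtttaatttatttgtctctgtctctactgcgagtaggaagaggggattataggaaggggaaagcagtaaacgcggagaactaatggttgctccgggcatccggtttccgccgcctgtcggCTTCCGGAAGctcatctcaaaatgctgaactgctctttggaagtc
CWC22: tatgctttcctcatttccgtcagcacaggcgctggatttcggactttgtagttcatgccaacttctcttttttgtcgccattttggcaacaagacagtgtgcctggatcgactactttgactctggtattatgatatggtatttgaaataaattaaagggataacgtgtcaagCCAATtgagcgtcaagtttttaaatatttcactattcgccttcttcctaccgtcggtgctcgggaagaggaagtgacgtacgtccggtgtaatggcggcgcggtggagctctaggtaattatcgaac
DHX36: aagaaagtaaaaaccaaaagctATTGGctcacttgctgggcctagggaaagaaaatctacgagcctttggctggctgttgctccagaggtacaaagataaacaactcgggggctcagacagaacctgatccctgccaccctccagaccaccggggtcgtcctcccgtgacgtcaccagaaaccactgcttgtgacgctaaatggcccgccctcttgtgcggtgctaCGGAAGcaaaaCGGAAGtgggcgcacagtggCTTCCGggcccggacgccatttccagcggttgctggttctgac
ARHGAP15: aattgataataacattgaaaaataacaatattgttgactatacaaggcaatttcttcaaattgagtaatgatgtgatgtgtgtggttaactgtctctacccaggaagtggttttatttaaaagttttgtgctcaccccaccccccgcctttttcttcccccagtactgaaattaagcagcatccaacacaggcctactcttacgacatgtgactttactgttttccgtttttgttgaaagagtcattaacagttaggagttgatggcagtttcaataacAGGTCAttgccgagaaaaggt
MGAT5: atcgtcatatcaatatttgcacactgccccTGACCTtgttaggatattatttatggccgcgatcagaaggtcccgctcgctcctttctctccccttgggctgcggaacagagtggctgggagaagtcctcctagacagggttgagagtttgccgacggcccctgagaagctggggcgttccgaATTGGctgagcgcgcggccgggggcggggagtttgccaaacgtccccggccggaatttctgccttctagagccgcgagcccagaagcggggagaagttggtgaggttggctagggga
PDE5A: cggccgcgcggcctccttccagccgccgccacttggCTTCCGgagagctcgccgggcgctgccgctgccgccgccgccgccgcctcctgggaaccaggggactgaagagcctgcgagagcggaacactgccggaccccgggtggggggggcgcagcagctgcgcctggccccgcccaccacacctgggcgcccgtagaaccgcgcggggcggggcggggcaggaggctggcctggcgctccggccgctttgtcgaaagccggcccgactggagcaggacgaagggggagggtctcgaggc

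In the GPATCH2 window the capitals are a CTTCCG and a CGGAAG that share bases, and the DHX36 window held 3 ETS cores and a CCAAT box. AGGTCA occurred in the window of ARHGAP15, 125 bases outside the peak, and, reversed, in that of MGAT5, inside the peak. The CCAAT box of DHX36 was 193 bases outside the peak, and the other matches in capitals were inside the peaks. The unshared peaks covered all 300 bases of the GPATCH2, CWC22, MGAT5 and PDE5A windows, 154 bases of the ARHGAP15 window and 80 bases of the DHX36 window.

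Unshared peaks lay mostly away from gene ends. Of their summits, 109 of 954 (11.4%, 9.48 to 13.6) were within 1 kb of an annotated end of a protein-coding gene, against 57.7% of shared peaks (56.7 to 58.8) and 53.1% of all PPARα peaks. A further 395 (41.4%, 38.3 to 44.6) lay inside a protein-coding gene, against 23.2% of shared peaks and 25.0% of all PPARα peaks. Sequence between genes held 319 (33.4%, 30.4 to 36.5), against 12.8% of shared peaks and 14.9% of all. The remaining 131 (13.7%, 11.6 to 16.1) were inside other annotated genes, against 6.22% of shared peaks and 6.97% of all. Among these 131 the host was a long noncoding RNA gene for 114, a pseudogene for 11 and a transcribed pseudogene for 2. Among the 536 shared peaks of this class the counts were 466, 10 and 36. The long noncoding RNA hosts are therefore not read as particular to unshared peaks. No interval of the unshared peaks reached that of the shared peaks in any of the 4 location classes. The rule bears on these shares, since a PPARα peak that touches PML/RARA is left out of the unshared group. A PML/RARA summit lay at an end of 57.6% of coding genes. The part of the rule in the location was not tested.

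**Figure D1:**
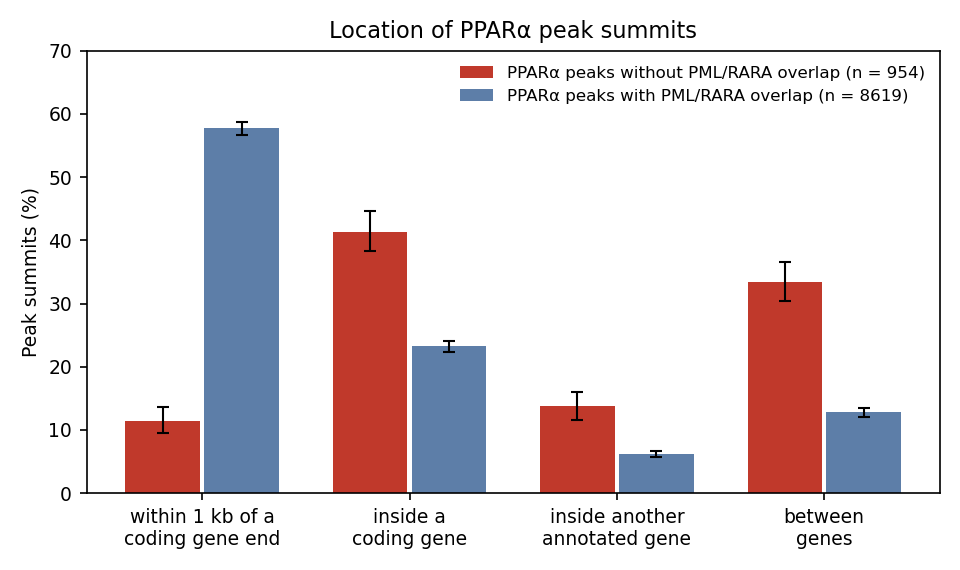
Percentage of PPARα peak summits (y axis) in 4 location classes (x axis), for peaks without PML/RARA overlap (left bar of each pair) and with it (right bar). Error bars are 95% exact binomial intervals. The gene-end bar is at 11.4% for unshared peaks and 57.7% for shared peaks, and the order is turned round in the other 3 classes. The rule that chose the peaks bears on these shares.

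Even at gene ends the summits stood differently around the start, though the rule bears on where they can stand. A peak that touches PML/RARA is left out of the unshared group, and 55 of its 109 gene-end peaks had PML/RARA within 1 kb. The part of this in the positions was not tested. RefSeq windows gave strand and start for 15101 of the 19126 coding genes, with none for chromosome 8. Of the 104 unshared gene-end summits outside chromosome 8, 67 (64.4%, 54.4 to 73.6) were within 1 kb of an annotated start, against 84.9% (83.9 to 85.9) of shared ones. Of those 67, 26 (38.8%, 27.1 to 51.5) fell within 250 bases of the start, against 70.1% (68.7 to 71.5) of the shared summits near a start. The median signed distance was 149 bases into the gene for unshared summits and 21 bases for shared ones. When starts inside genes were counted as well, 85 of 906 unshared summits (9.38%) lay within 1 kb of a coding start, against 55.0% of shared summits and 50.5% of all. The median distance to such a start was 56.5 kb for unshared peaks and 436.5 bases for shared peaks.

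Unshared peaks were the weaker and narrower members of the PPARα list. Fold enrichment and q are the authors' values for each peak, and both belong to the readout that chose the peaks, so they are given as a description. The median fold was 4.29 (quartiles 3.63 and 5.08), against 6.53 for shared peaks (5.23 and 8.48). The median −log10 q was 2.83 for unshared and 6.99 for shared peaks. A fold of 5 or more was reached by 268 unshared peaks (28.1%), against 80.1% of shared peaks and 74.9% of all PPARα peaks. A −log10 q of 5 or more was reached by 134 (14.05%), against 66.8% of shared peaks and 61.5% of all. The median width was 358 bases, against 528 for shared peaks, and the narrowest peak had 301 bases in both groups. A narrow peak has fewer bases with which to meet a PML/RARA peak, so width and the rule are not independent.

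The difference in location was also present within bins of strength. The bins are coarse, and strength within a bin was not compared between the groups. Its part in the location was not tested. In the lowest of 5 equal bins of −log10 q (1.32 to 3.39), which held 631 of the unshared peaks, 10.8% of them were at gene ends, against 45.3% of 1298 shared peaks. In the next bins the share at gene ends was 12.4% of 202, 12.3% of 81 and 13.9% of 36 unshared peaks, while for shared peaks it was 48.6%, 56.9% and 61.9%. The top bin held only 4 unshared peaks, 1 of them at a gene end. Weighted by the unshared peaks over the bins, shared peaks of the same bins were at gene ends in 47.7% of cases. The difference was -36.3 percentage points (unshared minus shared). Bins of fold gave -36.05 and bins of width -36.1 percentage points.

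**Figure D2:**
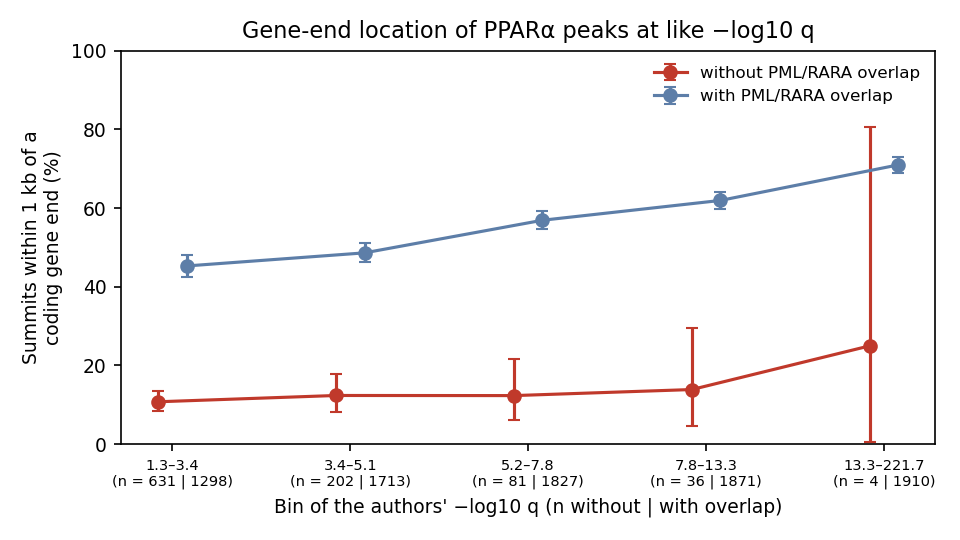
Percentage of summits within 1 kb of a coding gene end (y axis) in 5 bins of the authors' −log10 q (x axis), for unshared and shared PPARα peaks, with 95% exact binomial intervals. In the first 4 bins the unshared peaks stay between 10.8% and 13.9%, and the shared peaks lie between 45.3% and 61.9%. The fifth bin has 4 unshared peaks and an interval from 0.631% to 80.6%.

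The distance to the nearest PML/RARA peak varied widely among the unshared peaks. The gap ran from 1 base to 2615 kb, with a median of 23.7 kb and quartiles of 3.12 and 109.9 kb. In 90 peaks (9.43%) the gap was under 100 bases, and in another 87 it was between 100 bases and 1 kb. The gap was 1 to 10 kb in 165 peaks, 10 to 100 kb in 357, and 100 kb or more in 255 (26.7%), among them 34 peaks at 1 Mb or more. By construction a shared peak has its own partner nearby, and 2.66% of all PPARα peaks lay this far from PML/RARA.

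**Figure D3:**
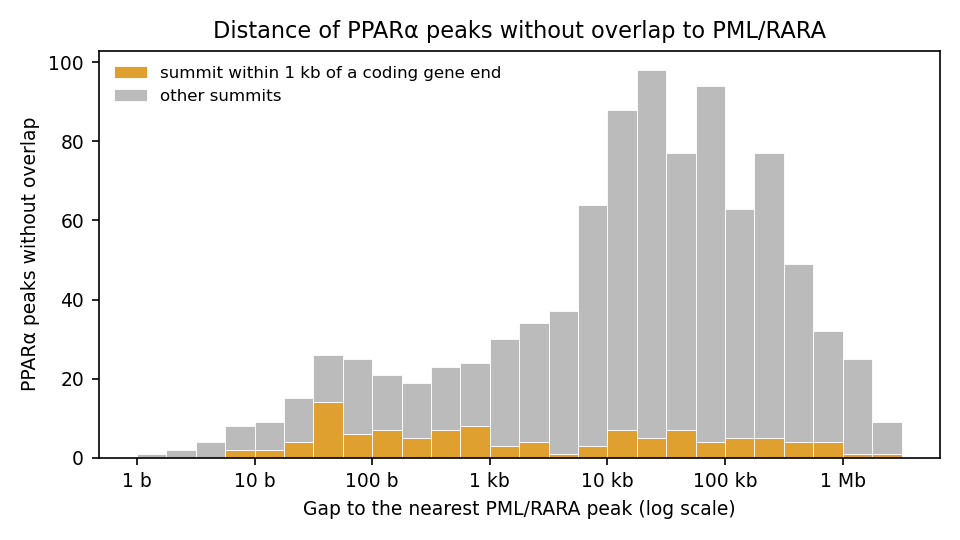
Number of unshared PPARα peaks (y axis) by the gap to the nearest PML/RARA peak (x axis, log scale, edge to edge), with summits within 1 kb of a coding gene end in orange and the others in grey. Most peaks lie beyond 10 kb, and the gene-end summits make up a larger part of the bars under 1 kb.

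Unshared peaks beside a PML/RARA peak were at gene ends about as often as the barely shared peaks. Within 1 kb of a PML/RARA peak, 55 of 177 unshared summits (31.1%, 24.3 to 38.5) were at gene ends, and beyond 1 kb 54 of 777 (6.95%, 5.26 to 8.97). Among the 503 shared peaks with under 100 bases in common with PML/RARA, 162 (32.2%, 28.1 to 36.5) were at gene ends. The share then went up with the bases in common, to 37.1% from 100 bases, 45.2% from 200, 59.2% from 300 and 71.75% from 500 bases. Longer overlaps came with wider and stronger peaks, as the median width was 358 bases in the first of these classes and 775 in the last, and the median −log10 q was 3.77 and 11.7. Their part in the location was not tested.

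**Figure D4:**
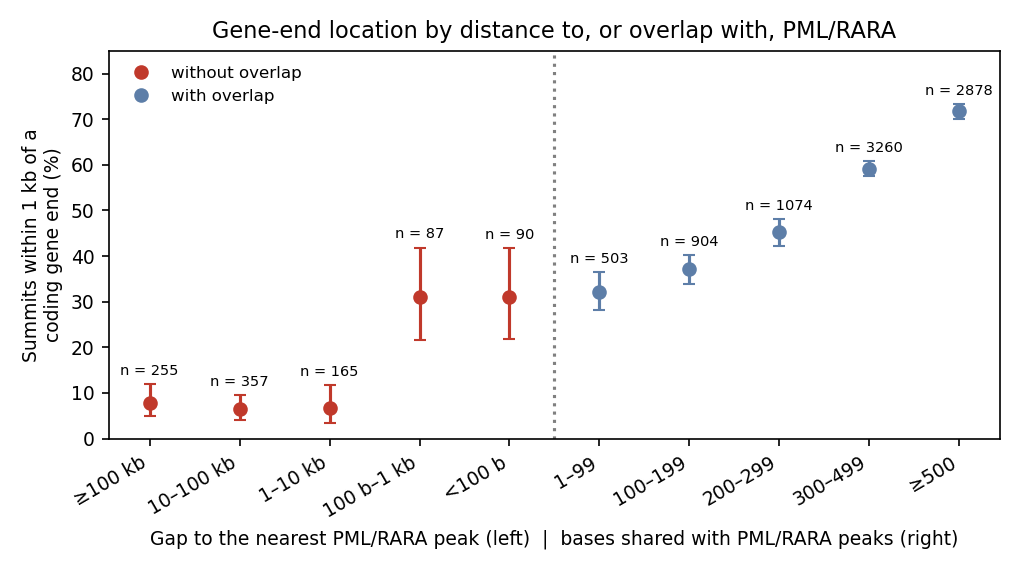
Percentage of PPARα summits within 1 kb of a coding gene end (y axis) by the gap to the nearest PML/RARA peak (left of the dotted line, unshared peaks) or by the bases shared with PML/RARA peaks (right, shared peaks), with 95% exact binomial intervals and the number of peaks. Beyond 1 kb the share is between 6.44% and 7.84%, on either side of the rule it is 31.1% and 32.2%, and it reaches 71.75% at 500 shared bases or more.

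The folds of the peaks nearest to either side of the rule overlapped. The 5 unshared peaks nearest to PML/RARA had gaps of 1, 2, 2, 4 and 5 bases. One of them lay inside BCL2, the gene of an apoptosis inhibitor (chr18:63178033-63178631, PPARα fold 4.97), 2 bases from a PML/RARA peak. The folds of the other four were 4.61, 8.26, 4.17 and 6.61. The 5 shared peaks with the fewest bases in common had 1, 1, 1, 2 and 2 bases, with folds of 4.26, 5.22, 4.40, 4.03 and 4.83. Among them were a peak inside ITPR3, a calcium channel gene of the endoplasmic reticulum, and one at SLC2A6, a sugar transporter gene.

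Some of the strongest unshared gene-end peaks were at gene starts far from any PML/RARA peak. Among the 15 unshared peaks of highest −log10 q, only the one between GPATCH2 and SPATA17 was at a gene end. The peak between GPATCH2 and SPATA17 (chr1:217631017-217631414) had a PPARα fold of 10.4 and a −log10 q of 14.7. It covered all 300 bases of both promoter windows, and the nearest PML/RARA peak was 714 kb away and the nearest other PPARα peak 1457226 bases away. At CWC22 (chr2:180007019-180007363) the fold was 6.73 and the −log10 q 6.67. The summit there lay 10 bases into the gene from an annotated start, and PML/RARA was 742 kb away. At DHX36 (chr3:154324198-154324517) the fold was 6.68, the −log10 q 6.44 and the gap 1102 kb. The start of FANCF, a gene of the Fanconi anemia core complex, carried a weaker peak (chr11:22625293-22625661, fold 4.83) at 2013 kb from PML/RARA, with GAS2 at the other side.

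In all, 20 unshared gene-end peaks were 100 kb or more from PML/RARA, and 19 of them were within 1 kb of an annotated coding start. The other one, on chromosome 8 where no starts were given, lay between MRPL13, a mitochondrial ribosome subunit gene, and MTBP. Several of these genes act on RNA: besides CWC22 and DHX36 there were PLRG1 (fold 4.40, gap 871 kb), a spliceosome component gene, DDX60L (6.61, 198 kb), a helicase-like gene, and CWF19L2 (5.62, 107 kb). This grouping was made after the genes were seen and was not tested. The share of such genes among all coding genes was not computed. TRIM5, which encodes a restriction factor against retroviruses, had a fold of 4.87 with its summit 13 bases into the gene and a gap of 404 kb. At PDE5A the fold was 5.29 with the summit 14 bases into the gene and a gap of 174 kb. MTERF2, a gene of the mitochondrial transcription termination factor family, had a fold of 6.15 and a gap of 106 kb, and AGBL3, a cytosolic carboxypeptidase gene, a fold of 6.99 and a gap of 183 kb. PLRG1, TRIM5, CWF19L2, PDE5A and FANCF were named after their values were seen.

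Other strong gene-end peaks had PML/RARA closer by. The peak at PDE11A, a phosphodiesterase gene (chr2:177622642-177622978), had a fold of 8.62 and a gap of 11.9 kb. ARHGAP15 (chr2:143128971-143129322) had a fold of 8.26, with the summit 341 bases before the start and a gap of 17.9 kb. RNASE3, which encodes the eosinophil cationic protein (chr14:20891341-20891745), had a fold of 7.93 with the summit 151 bases into the gene and a gap of 12.8 kb. FKBP7 (7.59), a prolyl isomerase gene of the endoplasmic reticulum, and BTN3A1 (7.57), a butyrophilin gene, had gaps of 1.04 and 1.25 kb. TBC1D15 (5.78), a Rab GTPase-activating protein gene, and ANKRD36B (5.78) had gaps of 26.0 and 54.8 kb.

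Further gene-end peaks lay right beside a PML/RARA peak. The gap was 37 bases at ZFYVE27 (fold 7.05), the gene of the endoplasmic reticulum protein protrudin, 18 bases at NRGN (6.20), the neurogranin gene, 34 bases at OSTM1 (5.87) and 15 bases at CLINT1 (5.80), an epsin-related clathrin adaptor gene. It was 237 bases at PTPN22 (5.90), a phosphatase gene of lymphocyte signalling, 260 bases where SDHA, a succinate dehydrogenase subunit gene, meets CCDC127 (5.64), and 901 bases at MGAT5 (5.59). The PML/RARA peak next to SDHA had a fold of 30.9 in its own list, a value which cannot be set against a PPARα fold.

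By gene, 119 of 19126 coding genes (0.622%) had an unshared summit within 1 kb of an end. Of these, 65 (54.6%) also had a PML/RARA summit at an end, against 57.6% of all coding genes. A shared PPARα summit at an end was found for 14 (11.8%), against 31.1% of all coding genes, and 53 (44.5%) had neither, against 42.2% of all.

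Away from gene ends the strongest peaks were scattered. The peak of highest −log10 q (16.2, fold 8.96, chr7:23595147-23595796) lay in the long noncoding RNA gene LOC105375187, 2092 bases before the start of CCDC126 and 1.46 kb from PML/RARA. Inside coding genes stood peaks at SRSF8, an SR splicing factor gene (chr11:95068412-95068719, fold 9.39, gap 575 bases), and PDE4D, a cAMP phosphodiesterase gene (chr5:60232258-60232577, 9.98, gap 16.3 kb). Others were in SORCS2 (7.91), a neuronal sorting receptor gene, ROBO1 (9.34), a Slit receptor gene, with PML/RARA 984 kb away, MGAM (8.96), the maltase-glucoamylase gene, RFTN2 (8.73) and NIM1K (8.27), a kinase gene. Between genes, a peak 3760 bases before KCNC1, a potassium channel gene (chr11:17730770-17731196), had a fold of 9.63. Peaks at chr1:86788418-86788762 (9.79), chr5:165410083-165410637 (9.88) and chr20:28307957-28308337 (9.34) lay 40354, 1568680 and 2505257 bases from the nearest coding gene end. One on chromosome 8 starting at 58396868 had the highest fold of the unshared peaks (10.7).

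The coding genes that held unshared peaks were longer than those that held shared peaks. A long gene offers more room for a summit over 1 kb from its ends. Host length was not computed over all PPARα peaks or all coding genes, and its part here was not tested. The 395 summits inside coding genes fell in 378 different hosts or host groups, with a median host length of 137.9 kb (121.9 to 157.9), against 87.05 kb (82.1 to 94.5) for the 2003 shared summits inside coding genes. The host was over 200 kb for 139 of them (35.2%), against 21.7% of shared ones. The median distance from these summits to an annotated coding start was 43.4 kb for unshared and 14.6 kb for shared peaks. EYS, a photoreceptor gene, held 3 unshared summits and 15 other hosts held 2 each, among them PDE4D, DLG2, a synaptic scaffold gene, INPP4B, a phosphoinositide phosphatase gene, and PROM1, which encodes CD133. These hosts were named after their counts were seen.

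The widest unshared peaks were few, and only 1 passed 1 kb. It had 1018 bases near the end of chromosome 5 (chr5:181188626-181189643, fold 3.77), with PML/RARA 9 bases away and another PPARα peak 308 bases away. The next had 937 bases and lay 5128 bases before the start of SOX4, an SRY-related transcription factor gene (chr6:21588392-21589328, fold 5.17), 25 bases from PML/RARA.

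Unshared peaks had fewer neighbours than shared peaks. Another PPARα peak lay within 10 kb of 71 of them (7.44%, 5.86 to 9.30), against 13.9% of shared peaks and 13.3% of all. Within 100 kb the figures were 53.5% for unshared and 74.7% for shared peaks, with 72.6% of all. The median gap to the next PPARα peak was 89.3 kb for unshared and 44.9 kb for shared peaks. No coding gene lay within 100 kb of 189 unshared summits (19.8%), against 2.96% of shared summits and 4.64% of all. The median number of PML/RARA peaks within 100 kb was 2 around unshared and 8 around shared summits, which include their own partner. At gene ends alone these medians were 4 and 7, and between genes they were 1 and 10.

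Few unshared peaks had another unshared peak close by. Of the 954, 16 had one within 10 kb, in 8 couples, and no run of 3 was found. Of the 71 with any PPARα peak within 10 kb, 55 had only shared peaks there. Over all PPARα peaks 13.3% had another PPARα peak within 10 kb. Unshared peaks were 9.97% of the PPARα peaks, which leaves few such neighbours to meet. The number of couples is therefore not read as a lack of grouping. Couples lay within STAB2, a scavenger receptor gene of endothelium, CHFR, a mitotic checkpoint gene, and LTK, a receptor tyrosine kinase gene, and just before STXBP5. The other four lay between genes, on chromosomes 1, 5, 9 and 12.

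The PML/RARA list has long stretches without a peak, and 185 unshared peaks (19.4%) lay in stretches of over 1 Mb. By the rule no shared peak can lie there, so these are 1.93% of all PPARα peaks, while such stretches, centromeres included, take up 37.2% of the sequence between the first and last PML/RARA peaks of the chromosomes. The 954 peaks fell in 874 different stretches, of which 805 held 1 unshared peak and 3 held the maximum of 4. The longest stretch with any was 18.0 Mb on chromosome 1 (chr1:125183898-143213104) and held 2. Both lay at its edge, 27.9 and 19.6 kb from a PML/RARA peak, and the stretch spans the heterochromatin beside the centromere. EYS and its 3 peaks lay in a stretch of 4.05 Mb (chr6:63636247-67684054).

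Chromosomes differed in the share of PPARα peaks that were unshared. It was 17.6% (13.4 to 22.5) on chromosome 13, 17.35% on chromosome 5 and 16.9% on chromosome 4. It was 2.78% (1.63 to 4.41) on chromosome 19, 2.80% on chromosome 22 and 4.14% on chromosome 17. Across the 22 chromosomes the share ran against the number of coding genes per Mb (Spearman's rho -0.63) and of PML/RARA peaks per Mb (rho -0.69). Both are given as a description. The rule uses the positions of the PML/RARA peaks, so the second relation is partly built in. Chromosome 18 had 3.37 coding genes per Mb and a share of 5.71% (2.13 to 12.0, 6 of 105 peaks). That interval includes the 9.97% of all 22 chromosomes.

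**Figure D5:**
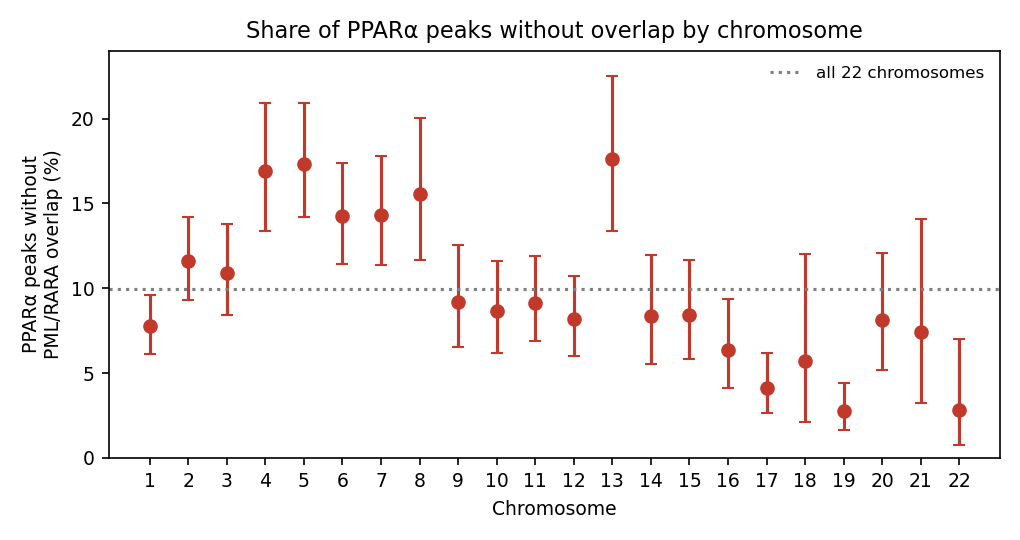
Percentage of PPARα peaks that share no base with PML/RARA (y axis) on each of chromosomes 1 to 22 (x axis), with 95% exact binomial intervals. The dotted line is the value over all 22 chromosomes, 9.97%. The whole interval lies above it for chromosomes 4 to 8 and 13, and below it for chromosomes 1, 16, 17, 19 and 22.

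The start sites that unshared peaks touched were poorer in G and C than those of shared peaks. Unshared peaks touched 47 of 21156 coding promoter windows (0.222%), at 45 genes. Their median GC content was 54.0% (50.3 to 59.3), against 65.3% (65.3 to 65.7) in the 5898 windows touched by shared peaks and not by unshared ones, and 62.7% in all windows. The median number of CG dinucleotides per window was 17 (13 to 19), against 27 for shared peaks and 21 for all windows. The order was the same among peaks of the lowest bin of −log10 q, with 54.0% GC in 25 windows of unshared peaks and 67.0% in 565 windows of shared peaks. In the 23 windows touched by unshared peaks 100 kb or more from PML/RARA the median was 52.3%. In windows without a PPARα peak the medians were 60.7% GC and 15 CG dinucleotides. A PML/RARA peak was at 3 of the 47 windows of unshared peaks and at 5809 of the 5898 of shared peaks. The contrast is therefore also one of windows mostly without and mostly with PML/RARA, and these cannot be told apart here. Of the windows printed above, that of ARHGAP15 had the lowest GC content of the 47 and that of PDE5A the highest (77.3%).

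The windows of unshared peaks were searched for receptor elements and common promoter motifs, and with 47 windows most intervals are wide. AGGTCA, searched on both strands, was in 2 of 47 windows of unshared peaks (4.26%, 0.520 to 14.5), against 9.27% of windows of shared peaks and 11.9% of all windows, both of which lie within that interval. The exact direct repeat, AGGTCA and AGGTCA with any 1 base between them, was in 0 of 47, which allows up to 7.55% by the exact interval, against 2 of 5898 windows of shared peaks and 5 of all 21156 windows, too few anywhere for a comparison. The ETS core CGGAAG was in 25.5% of windows of unshared peaks, 40.4% of windows of shared peaks and 23.8% of all. The GC box GGGCGG was in 40.4%, 75.1% and 56.6% in the same order. The CCAAT box was in 44.7%, 41.4% and 34.4%. The cyclic AMP element TGACGTCA was in 3 windows of unshared peaks (6.38%, 1.34 to 17.5), those of DHX36, ZNF330 and MAF, against 3.85% of windows of shared peaks and 2.31% of all. TATAAA was in 6.38%, 4.29% and 9.51%. Each search used both strands, the direct repeat contains the single core, and a match shows letters in the window, not a bound site.

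The count of unshared peaks at genes of PPARα's textbook programme was near that of all coding genes. In or within 10 kb of 676 of 19126 coding genes (3.53%) there was an unshared summit. Of 49 fatty acid oxidation and PPARα target genes 1 had one (2.04%), and it was ETFA, the gene of an electron transfer flavoprotein subunit (chr15:76260715-76261087, fold 5.03, inside the gene, gap 50.1 kb). Any PPARα peak was present at 25 of these 49 genes, against 48.0% of all coding genes. Of 30 lipid transport and storage genes 1 had an unshared peak (3.33%), inside LIPC, the hepatic lipase gene (chr15:58521879-58522181, fold 5.18), 50 bases from PML/RARA.

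Nuclear receptor and cofactor genes had an unshared peak at 4 of 40, against 3.53% of all coding genes. Any PPARα peak was present at 29 of these 40 (72.5%), against 48.0% of all coding genes. The summit at CREBBP, which encodes the acetyltransferase CBP (chr16:3879662-3880024, fold 4.31), lay 317 bases into the gene from a start, 735 bases from PML/RARA. RXRA, the gene of the partner receptor, held one inside (chr9:134408996-134409297, 4.02, gap 308 bases). At NR2F1, which encodes the orphan receptor COUP-TF1, the summit was 3171 bases before the start (4.35, gap 142 bases), and within 10 kb of NCOA3, a steroid receptor coactivator gene, it was inside the neighbouring gene SULF2 (3.44, gap 63.6 kb). With the exception of NCOA3 these peaks were within 1 kb of PML/RARA.

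Of 41 myeloid and granulocyte genes 2 had an unshared peak (4.88%), against 3.53% of all coding genes. At MPO, the myeloperoxidase gene of promyelocyte granules, the summit was 273 bases from an annotated end (chr17:58280493-58280971, fold 3.99) and the nearest PML/RARA peak was 510 bases away. At RUNX1, a hematopoietic transcription factor gene, the peak lay inside (chr21:34807938-34808285, 3.59) with a gap of 30 bases. No unshared peak lay in or within 10 kb of 35 retinoic acid response genes, 50 ribosomal protein genes, 12 lymphoid, 9 erythroid and megakaryocyte, or 9 liver, muscle and neuron genes. With 3.53% of all coding genes having one, an absence in lists of this size is not read as a lack. Any PPARα peak was present at 42 of the 50 ribosomal protein genes (84.0%) and 13 of the 35 retinoic acid response genes (37.1%), against 48.0% of all coding genes. These lists were not tested, and nothing particular to any of them is claimed.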

How the data were processed

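Peak lists of 2 CUT&Tag libraries of NB4 cells were used, 1 per antibody. The build is hg38, and Bowtie2 2.2.9, SAMtools, MACS 1.4.2 and bedtools are named without roles or settings, per the submitters' processing notes. The sources used here do not say whether IgG served as control. The deposited lists give each peak's fold enrichment (a linear ratio over background), its −log10 p and −log10 q, a summit offset, and a score that is 10 times −log10 q cut to a whole number. The score and p were not used. This layout is that of later MACS releases than the version named, so the release that wrote the fold and q values is unsure.

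Peaks on chromosomes 1 to 22 were kept, and no filter for repeats or centromeric sequence was applied to them here. Overlap and gaps were computed on half-open intervals with numpy 2.4.6 and pandas 2.3.3, and bedtools 2.31.1 gave the same 954 peaks. Summits were placed against RefSeq genes of GRCh38.p14: first within 1 kb of either end of a coding gene, then inside coding genes, inside other genes, or between genes. Starts and strands came from RefSeq promoter windows, which cover 15101 coding genes. Exact intervals came from scipy 1.17.1. The procedures were tested on simulated data with planted overlaps and gaps.

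The peaks and gene lists were chosen with earlier results of these data known. Peaks were named by highest −log10 q (15, and 20 at gene ends), width, distance, closeness to the rule, and membership in the lists. Alternatives were stricter lists, other overlap rules, other windows, chromosome X added and chromosome 13 left out.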

Additional observations from a re-analysis of the deposited data

How the results depend on the processing

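The lower share of unshared peaks at gene ends, against shared peaks in the same bins, kept its sign in all 13 alternatives run. Values that left the main interval, or a count that moved over 1.5 times, were these. With PPARα −log10 q of at least 5 there were 134 unshared peaks, with 14.2% at gene ends, a width of 393.5 bases, 2.24% with a PPARα neighbour, a gap of 28272 bases and a matched difference of -44.15 points. With PPARα fold of at least 5 the values were 268 peaks, 391.5 bases, 4.10% with a neighbour and -40.55 points. With PML/RARA fold of at least 5, 11.0% had a neighbour, and with PML/RARA −log10 q of at least 5 the gap was 29782.5 bases. Counting peaks within 1 kb of PML/RARA as shared gave 6.95% at gene ends, 5.53% with a neighbour, a gap of 41535 bases and -40.1 points. Calling a peak shared only when PML/RARA covered at least 50% of its bases gave 2777 peaks, 29.6% at gene ends, 23.8% between genes, 402 bases, 11.5% with a neighbour, a gap of 0 bases and -26.8 points. The gene-end share was 7.02% with windows of 500 bases, 21.8% with 5 kb and 19.8% with all annotated genes. The neighbour share was 3.25% within 5 kb and 34.6% within 50 kb. Each setting keeps other peaks or windows, and the part of this in the moves was not tested. The other 38 values stayed within the main range. Leaving out dense stretches gave no value, since no run of 3 unshared peaks existed. No paired analysis was possible because each antibody has 1 library. The unknown depth limits what a missing PML/RARA peak shows.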
